A study of Homo sapiens with 14 samples.

Results

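The genes described here are the aryl hydrocarbon receptor AHR and 5 genes of its response, namely AHRR, CYP1A1, CYP1B1, TIPARP and ALDH3A1. They were taken by symbol from RNA-seq count tables of 14 libraries, and they are 6 of the 23106 gene symbols counted. They were chosen by their place in the pathway and selected on measured values, namely the low level of CYP1B1 in hypoxic against normoxic PC3 cells and its high level in that line. For that reason the 6 genes carry no p-value in hypoxic against normoxic PC3 or in the difference of that effect between the lines, and CYP1B1 carries none between the lines.

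RNA was measured in PC3, a cell line from a human prostate carcinoma, and in HCT116, a cell line from a human colorectal carcinoma. Cells of each line, with no engineered change named in the labels, were kept in normoxia (21% O2) or in hypoxia (0.5% O2) for 16 h. There were 4 normoxic and 4 hypoxic PC3 libraries, and 3 normoxic and 3 hypoxic HCT116 libraries. The labels name no added ligand of AHR, PC3 was grown in DMEM/Ham's F12 and HCT116 in McCoy's 5a, so line and medium cannot be told apart.

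AHR is a transcription factor of the bHLH-PAS family that is held in the cytoplasm in a complex with HSP90 and p23 (the product of PTGES3). When it binds a ligand, such as a polycyclic aromatic hydrocarbon or a tryptophan metabolite, it enters the nucleus and pairs with ARNT, also called HIF-1β, on DNA elements with the core GCGTG. HIF-1α and HIF-2α, which accumulate in hypoxia, pair with the same ARNT on elements with the core ACGTG or GCGTG. AHRR and TIPARP are targets of AHR that act back on it: AHRR competes for ARNT, and TIPARP (PARP7) ADP-ribosylates the receptor and promotes its loss. CYP1A1 and CYP1B1 are cytochrome P450 monooxygenases that oxidise polycyclic hydrocarbons and oestrogens, and ALDH3A1 is a dehydrogenase of aromatic and medium-chain aldehydes.

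On GRCh37 the MANE Select transcript of AHR lies at chr7:17338276-17385771 (plus strand, 11 exons) and that of AHRR at chr5:321829-438400 (plus strand, 11 exons). CYP1A1 lies at chr15:75011883-75017869 (minus strand, 7 exons) and CYP1B1 at chr2:38294652-38303293 (minus strand, 3 exons). TIPARP lies at chr3:156392379-156424559 (plus strand, 6 exons) and ALDH3A1 at chr17:19641302-19651611 (minus strand, 11 exons). The exons of AHRR are shared over 5555 bases with the readthrough gene PDCD6-AHRR on the same strand, and those of CYP1B1 over 303 bases with CYP1B1-AS1 on the opposite strand. AHR shares 2373 exonic bases with an unnamed same-strand gene model, and AHR and ALDH3A1 share 270 and 98 with antisense transcripts. None of these neighbours has counts of its own, and whether counting used strand is not given in the sources used here, so their reads cannot be told apart from those of AHR, AHRR, CYP1B1 and ALDH3A1.

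The elements of AHR and of the HIFs have nearly the same core letters, and binding to the promoters shown was not tested here. Shown are the promoters of the receptor, of its repressor AHRR and of the classical target CYP1A1. Each is the 250 bases before a RefSeq start of transcription on GRCh38.p14, and capitals mark a match to GCGTG or ACGTG on either strand. The AHR window is chr7:17298402-17298651 (plus strand), the AHRR window, the first of 2 starts, is chr5:321464-321713 (plus strand), and the CYP1A1 window is chr15:74725529-74725778 (minus strand, printed in the direction of the gene).
AHR: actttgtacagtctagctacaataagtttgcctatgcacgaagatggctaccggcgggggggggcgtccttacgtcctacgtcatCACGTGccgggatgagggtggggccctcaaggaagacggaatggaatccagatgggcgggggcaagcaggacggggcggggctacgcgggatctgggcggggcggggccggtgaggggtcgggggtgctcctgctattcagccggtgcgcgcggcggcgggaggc
AHRR: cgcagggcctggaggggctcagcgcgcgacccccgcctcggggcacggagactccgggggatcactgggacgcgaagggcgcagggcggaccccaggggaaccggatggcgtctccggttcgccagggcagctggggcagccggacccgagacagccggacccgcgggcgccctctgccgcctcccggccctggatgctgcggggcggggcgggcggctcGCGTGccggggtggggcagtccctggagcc
CYP1A1: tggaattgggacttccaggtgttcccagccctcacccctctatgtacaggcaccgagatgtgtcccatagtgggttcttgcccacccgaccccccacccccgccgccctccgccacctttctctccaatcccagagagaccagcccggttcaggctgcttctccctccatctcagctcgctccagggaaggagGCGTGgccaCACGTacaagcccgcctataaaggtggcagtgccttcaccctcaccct

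In the CYP1A1 window GCGTG starts at position -57 from the start of transcription and CACGT, which is ACGTG on the other strand, at -48. The AHRR window holds GCGTG at -30, as part of TCGCGTG, a match to the longer element TNGCGTG. The AHR window holds the palindrome CACGTG at -165, which is ACGTG on both strands, and GCGTG only after the start, at 38. Over the full windows (250 bases before and 50 after the start), 5 of the 7 windows of AHR, AHRR, CYP1A1 and TIPARP held GCGTG, against 36.5% of all 35116 promoter windows. TNGCGTG was in 1 of the 7 and in 5.51% of all, and ACGTG was in 2 of the 7 and in 21.4% of all. Of the 3 TIPARP windows, 1 held GCGTG, on the minus strand at -208 and -142. CYP1B1 and ALDH3A1 are named only. These matches are letters in a window and not evidence of binding.

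All 6 genes passed the filter on low counts in every fit. Library totals were 98021966 to 123935458 counts in normoxic PC3, 71228454 to 96159803 in hypoxic PC3, 136931675 to 147934177 in normoxic HCT116 and 133067391 to 150630928 in hypoxic HCT116, so every count behind the 6 genes was 59 or more. Of the HIF targets NDRG1, CA9, ANKRD37, EGLN3, PFKFB4, BNIP3, PDK1 and VEGFA, 8 of 8 rose in PC3 and 8 of 8 in HCT116 (median log2 fold changes 1.69 and 3.11, against 0.00 over all genes in each line), where 6.03% and 14.6% of all genes rose. In PC3 the call of CA9 was lost without the hypoxic library of replicate 2 or the normoxic one of replicate 3 (edgeR adjusted p = 0.0631 and 0.068), and that of VEGFA without the normoxic library of replicate 2, 3 or 4 (0.0605, 0.0688 and 0.0535). The HIF targets were listed as a check of hypoxia with earlier results of these data known, so nothing is read from their share. The epithelial markers EPCAM, KRT8, KRT18 and CDH1 were counted in both lines. CDX2, an intestinal transcription factor, averaged 17.6 CPM in normoxic HCT116 and had no count in PC3, and the prostate factor HOXB13 averaged 81.0 CPM in normoxic PC3 and 10.0 in normoxic HCT116. The prostate markers KLK3 and FOLH1 had at most 0 and 2 counts in a PC3 library, and the intestinal markers CDX1, CDH17 and VIL1 had at most 0, 3 and 8 in an HCT116 library. CPM here means the count scaled to library size after TMM normalisation over all 14 libraries.

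AHR itself was far more abundant in PC3 than in HCT116 and differed little with oxygen in either line. In normoxic PC3 the AHR mRNA stood at 194, 209, 196 and 212 CPM in replicates 1 to 4, and in hypoxic PC3 at 181, 187, 181 and 148 CPM. In HCT116 it stood at 45.4, 45.0 and 39.7 CPM in normoxia and at 46.9, 49.2 and 45.3 CPM in hypoxia. Every hypoxic PC3 library was below every normoxic one, whereas the HCT116 ranges overlapped, and no PC3 library came near an HCT116 library. The normoxic mean was 4.67 times higher in PC3 (203 ± 9.14 against 43.4 ± 3.18 CPM, SD, n = 4 and 3), a log2 difference of 2.22 (SE 0.09, edgeR adjusted p = 3.84e-12). Hypoxic PC3 held 86.0% of the normoxic AHR mean, a log2 fold change of -0.21 (SE 0.08). That difference rested in part on replicate 4, and it was -0.14 without the hypoxic library of replicate 4. In HCT116 the log2 fold change was 0.14 (SE 0.07, edgeR adjusted p = 0.181), which did not pass the threshold.

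The receptor's partner ARNT hardly differed with oxygen. It ranged from 27.8 to 32.1 CPM in normoxic PC3 and from 28.1 to 33.4 CPM in hypoxic PC3, and from 40.2 to 43.6 CPM and 40.2 to 43.7 CPM in normoxic and hypoxic HCT116. The log2 fold change of ARNT in hypoxia was -0.01 (SE 0.08, edgeR adjusted p = 0.966) in PC3 and 0.01 (SE 0.07, edgeR adjusted p = 0.907) in HCT116. PC3 held less ARNT than HCT116 in normoxia (log2 difference -0.47, SE 0.08, edgeR adjusted p = 4.0e-05), the opposite direction to AHR.

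AHRR, the competitor of AHR for ARNT, had the reverse order of lines. It stood at 3.30, 2.44, 3.19 and 2.64 CPM in normoxic PC3 and at 3.79, 2.69, 2.58 and 2.23 CPM in hypoxic PC3. In HCT116 it stood at 15.4, 12.5 and 12.9 CPM in normoxia and at 11.7, 8.78 and 12.7 CPM in hypoxia. All HCT116 libraries lay above all PC3 libraries, and within each line the oxygen groups overlapped. The normoxic mean was 4.70 times higher in HCT116, a log2 difference of -2.23 for PC3 against HCT116 (SE 0.18, edgeR adjusted p = 1.07e-08). The hypoxia log2 fold change was -0.03 (SE 0.19) in PC3, where replicates 1 and 2 were higher and replicates 3 and 4 lower in hypoxia. In HCT116 it was -0.28 (SE 0.13, edgeR adjusted p = 0.129), short of the threshold, though it passed when the libraries were scaled by total count (-0.37, adjusted p = 0.0267).

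TIPARP, the ADP-ribosyltransferase that acts on AHR, was abundant in both lines. It stood at 82.0, 91.4, 79.3 and 77.5 CPM in normoxic PC3 and at 64.2, 72.2, 64.9 and 75.8 CPM in hypoxic PC3. In HCT116 it stood at 112, 101 and 102 CPM in normoxia and at 115, 113 and 108 CPM in hypoxia. The hypoxic PC3 libraries all lay below the normoxic ones, with replicate 4 nearly equal between conditions, and the HCT116 ranges overlapped. The normoxic mean was 1.27 times higher in HCT116 (PC3 against HCT116 log2 difference -0.35, SE 0.08, edgeR adjusted p = 7.6e-04). The hypoxia log2 fold change was -0.25 (SE 0.08) in PC3 and 0.11 (SE 0.07, edgeR adjusted p = 0.257) in HCT116.

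**Figure D1:**
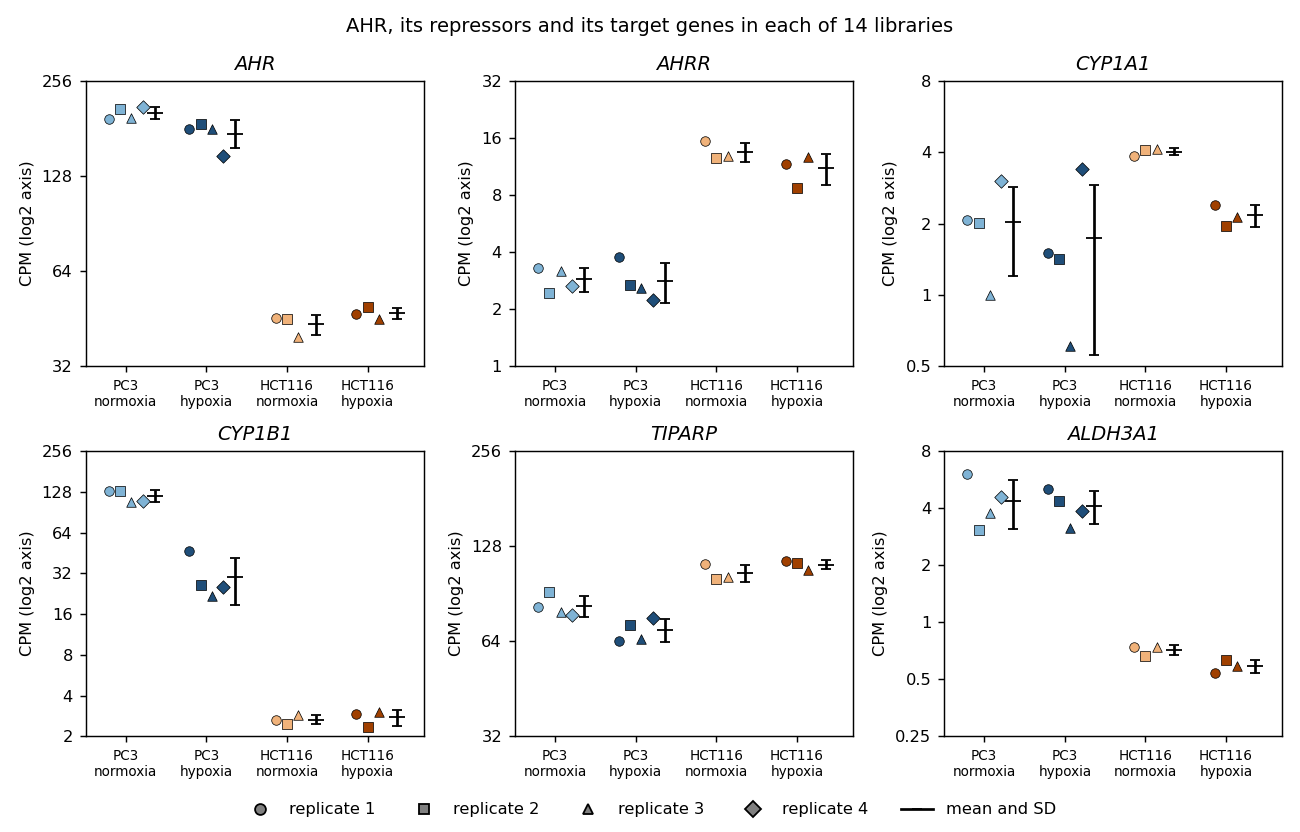
CPM of the 6 genes (log2 axes, a scale per gene) in each library, with replicate numbers as symbols and the mean ± SD of each group in black. AHR, CYP1B1 and ALDH3A1 were higher in every PC3 library than in any HCT116 library, AHRR and TIPARP the reverse, and the hypoxic PC3 libraries held 21.8 to 47.1 CPM of CYP1B1 against 107 to 130 CPM in normoxia.

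CYP1B1, selected in part for its high level in PC3, had the largest distance between the lines of the 6 genes. It stood at 130, 129, 107 and 110 CPM in normoxic PC3 and at 47.1, 26.3, 21.8 and 25.4 CPM in hypoxic PC3. In HCT116 it stood at 2.63, 2.47 and 2.86 CPM in normoxia and at 2.91, 2.33 and 3.05 CPM in hypoxia. Normoxic PC3 was thus above hypoxic PC3, and hypoxic PC3 above both HCT116 groups, with no overlap between those 3 levels, while the HCT116 groups overlapped. The PC3 mean was 44.8 times the HCT116 mean in normoxia (log2 difference 5.49, SE 0.25) and 10.9 times in hypoxia.

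In PC3 the CYP1B1 log2 fold change in hypoxia was -1.97 (SE 0.23), the 8th lowest of 14309 genes tested, and it stayed between -2.28 and -1.83 with any one library left out. With the replicate number as a block, which pairs the PC3 libraries, the CYP1B1 value was -2.04 (SE 0.14). CYP1B1 was selected on this contrast, so nothing is read from the rank or the range. Against the normoxic library of the same number, hypoxic CYP1B1 was at 36.1% in replicate 1, 20.4% in replicate 2, 20.4% in replicate 3 and 23.1% in replicate 4. Replicate 1 was therefore the mildest of the 4. In HCT116 the log2 fold change was 0.07 (SE 0.14, edgeR adjusted p = 0.733), and with scaling by total count it was -0.017. The PC3 minus HCT116 difference of the hypoxia log2 fold changes was -2.04 (SE 0.30), and -2.09 (SE 0.19) with the block. In bulk RNA, fewer cells that express a gene and less RNA of it per cell cannot be told apart.

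CYP1A1, which shares substrates with CYP1B1, was scarce in both lines and was the only one of the 6 genes to pass the test in hypoxic HCT116, where 25.9% of all genes passed (11.3% in the lower direction). In HCT116 it stood at 3.87, 4.08 and 4.14 CPM in normoxia (554 to 578 counts) and at 2.40, 1.96 and 2.14 CPM in hypoxia (272 to 344 counts). The groups were apart, and hypoxic CYP1A1 was at 53.8% of the normoxic mean. The log2 fold change was -0.88 (SE 0.12, edgeR adjusted p = 5.8e-04), the 183rd lowest of 14120 genes, and it stayed between -0.97 and -0.81 with any one library left out. When both lines were fitted together, and so shared one estimate of the spread, the same fall of -0.89 had an SE of 0.43 and did not pass (edgeR adjusted p = 0.204).

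The PC3 libraries varied more in CYP1A1, with SDs of 0.66 and 1.01 in log2 CPM in normoxia and hypoxia against 0.05 and 0.15 in HCT116. CYP1A1 stood at 2.08, 2.02, 0.999 and 3.02 CPM in normoxic PC3 and at 1.51, 1.42, 0.610 and 3.40 CPM in hypoxic PC3. Replicate 3 was the lowest and replicate 4 the highest in both conditions, the highest hypoxic library was 5.57 times the lowest, and the groups overlapped. Paired by number, CYP1A1 was lower in hypoxia in replicates 1, 2 and 3 (log2 ratios -0.46, -0.50 and -0.71) and higher in replicate 4 (0.17). The PC3 log2 fold change was -0.23 (SE 0.48) without pairing and -0.34 (SE 0.17) with the replicate number as a block, and without the hypoxic library of replicate 4 it was -0.77. In normoxia CYP1A1 was 1.99 times higher in HCT116, a log2 difference of -0.99 for PC3 against HCT116 (SE 0.40, edgeR adjusted p = 0.0331). That call was lost when the normoxic PC3 library of replicate 2 or 3, or any 1 of the 3 normoxic HCT116 libraries, was left out (edgeR adjusted p 0.0578 to 0.0899).

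**Figure D2:**
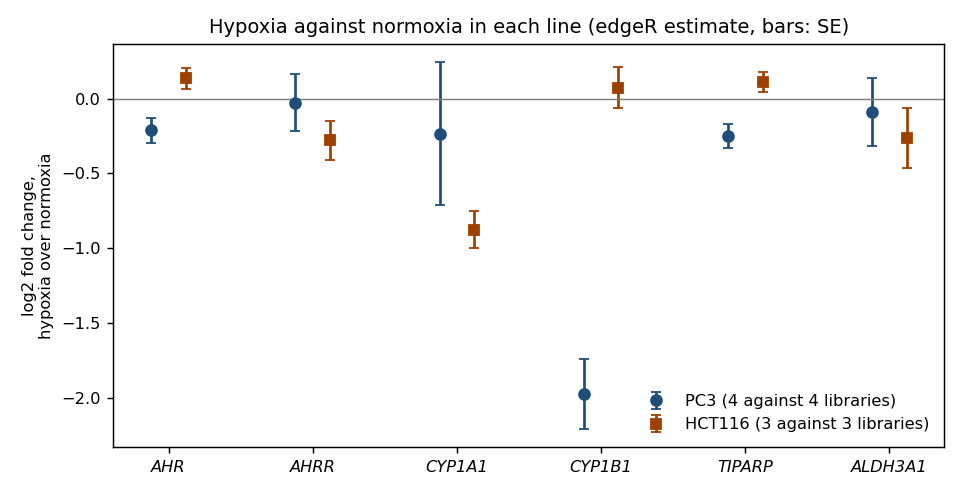
Log2 fold change in hypoxia of each gene in PC3 (circles) and HCT116 (squares), with bars of 1 SE. CYP1B1 stands at -1.97 in PC3 and 0.07 in HCT116, and CYP1A1 at -0.88 in HCT116 with a wide bar in PC3.

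ALDH3A1, the aldehyde dehydrogenase, followed AHR and CYP1B1 in its order of lines. It stood at 6.05, 3.07, 3.77 and 4.57 CPM in normoxic PC3 and at 5.02, 4.37, 3.13 and 3.86 CPM in hypoxic PC3. In HCT116 it stood at 0.739, 0.666 and 0.737 CPM in normoxia and at 0.538, 0.633 and 0.591 CPM in hypoxia. The PC3 groups overlapped, and in HCT116, at 75 to 110 counts a library, the hypoxic libraries were all below the normoxic ones. The normoxic mean was 6.12 times higher in PC3 (log2 difference 2.61, SE 0.23, edgeR adjusted p = 4.31e-08). The hypoxia log2 fold change was -0.09 (SE 0.23) in PC3 and -0.27 (SE 0.20, edgeR adjusted p = 0.36) in HCT116.

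Between the lines in normoxia, all 5 genes that were tested passed the threshold, AHR and ALDH3A1 higher in PC3 and AHRR, CYP1A1 and TIPARP higher in HCT116. Over all genes 81.3% passed in that comparison, so the number of calls is near the background. The ranges of the lines did not overlap for 6 of 6 genes in normoxia and 5 of 6 in hypoxia (all but CYP1A1), against 82.4% and 77.2% of all genes tested. The oxygen groups did not overlap for 2 of 6 genes in HCT116 (CYP1A1 and ALDH3A1), against 42.5% of all genes, and the HCT116 share is therefore not above the background. In PC3 they did not overlap for AHR, CYP1B1 and TIPARP, beside 20.9% of all genes. CYP1B1 was selected on that contrast, so nothing is read from this number.

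**Figure D3:**
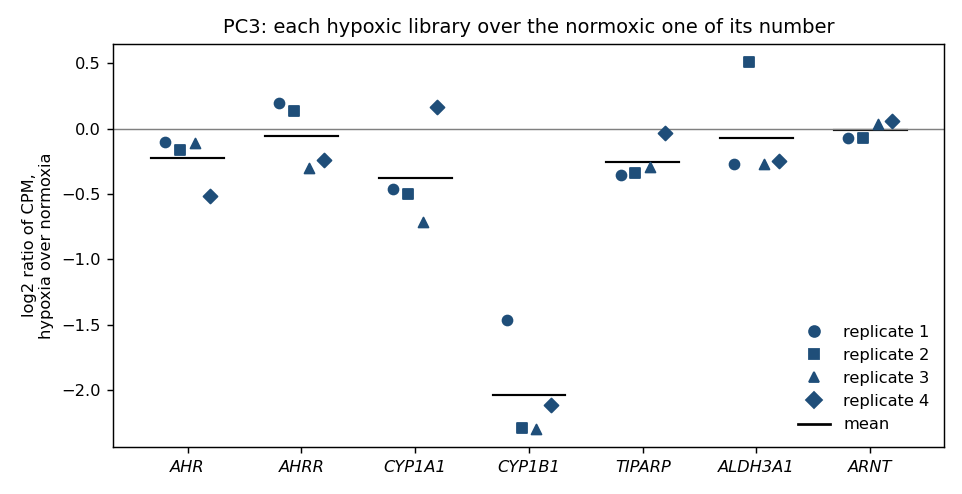
Log2 ratio of CPM, hypoxia over normoxia, for each PC3 replicate number, for the 6 genes and ARNT, with the mean of the 4 as a line. CYP1B1 lies between -2.30 and -1.47, AHR and TIPARP are below 0 in 4 of 4 pairs, and AHRR, CYP1A1, ALDH3A1 and ARNT have pairs on both sides of 0.

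Levels of different genes were compared per exonic length, as RPKM. In normoxic PC3 the order was AHR (32.5 ± 1.46 RPKM), CYP1B1 (22.8 ± 2.34), TIPARP (21.4 ± 1.61), ALDH3A1 (2.66 ± 0.781), CYP1A1 (0.779 ± 0.318) and AHRR (0.511 ± 0.0735; SD, n = 4). CYP1B1 and TIPARP overlapped, as did CYP1A1 and AHRR, and the other neighbours did not. In normoxic HCT116 the order was TIPARP (27.2 ± 1.64 RPKM), AHR (6.95 ± 0.509), AHRR (2.40 ± 0.277), CYP1A1 (1.55 ± 0.0531), CYP1B1 (0.509 ± 0.0372) and ALDH3A1 (0.436 ± 0.0253; SD, n = 3), with no overlap between neighbours. Among 13687 genes with a length, the CYP1B1 mean was at the 77.7th percentile in normoxic PC3, the 48.1st in hypoxic PC3 and the 23.5th in normoxic HCT116.

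The balance of the CYP1 transcripts was opposite in the lines. In normoxic PC3 the RPKM of CYP1B1 was 31.2, 31.9, 53.4 and 18.1 times that of CYP1A1, and in hypoxic PC3 15.5, 9.23, 17.8 and 3.73 times. In HCT116 the ratio was 0.339, 0.303 and 0.345 in normoxia and 0.603, 0.594 and 0.710 in hypoxia. CYP1B1 was thus the major CYP1 transcript in every PC3 library and the minor one in every HCT116 library. The ratio was lower in hypoxia in all 4 PC3 pairs, where CYP1B1 was lower, and higher in hypoxia in all HCT116 libraries, where CYP1A1 was lower. The third gene of the family, CYP1A2, had at most 2 counts in any library.

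**Figure D4:**
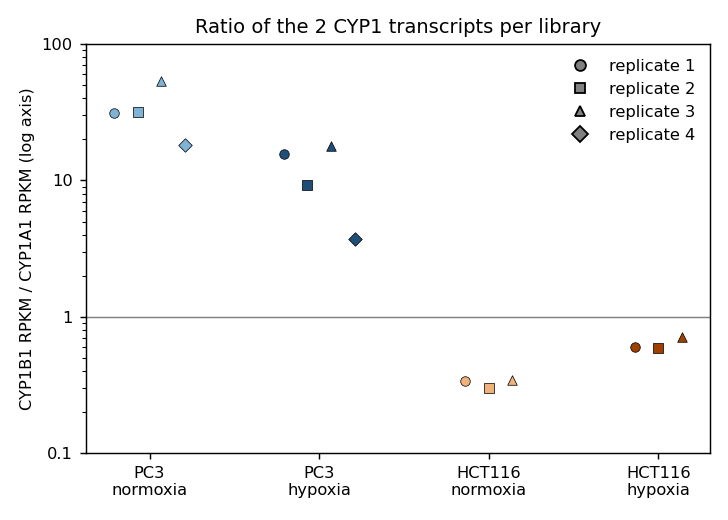
CYP1B1 RPKM divided by CYP1A1 RPKM in each library (log axis, line at a ratio of 1), with symbols for replicate numbers. PC3 libraries lie between 3.73 and 53.4, and HCT116 libraries between 0.303 and 0.710.

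Of 61 other genes around the pathway (the receptor complex, other bHLH-PAS proteins, coregulators, other AHR targets, makers of tryptophan-derived ligands, and electron supply or regulators of CYP1B1), 51 were tested in PC3. In hypoxia 3 rose and 3 fell, against 6.03% and 5.29% of all genes, and the median log2 fold change was 0.13 against 0.00 over all genes. With the replicate number as a block, which pairs the PC3 libraries, 14 rose and 8 fell, against 14.9% and 13.6% of all genes with the block. DESeq2 called 14 and one fit over both lines 12, against 18.2% and 15.9% of all genes by the same fits. Without the normoxic library of replicate 2 or 3 or the hypoxic library of replicate 2, 3 were called. In HCT116 41 were tested, 10 rose and 1 fell, against 14.6% and 11.3% of all genes, with a median of 0.08 against 0.00, and one fit over both lines called 6, against 11.2% of all genes. With scaling by total count, which moved the median of all genes by -0.10 in PC3 and -0.09 in HCT116, 1 rose and 4 fell in PC3 (3.93% and 12.1% of all genes) and 7 rose and 5 fell in HCT116 (9.11% and 22.3% of all genes). None of the 52 genes tested passed for a difference of the hypoxia effect between the lines by edgeR, against 2.32% of all genes, and 12 had an unadjusted p under 0.05. DESeq2 called 4 and the replicate block 5, against 6.22% and 8.44% of all genes by the same fits.

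Of the receptor complex and partners, 1 of 7 rose by the test in PC3, against 6.03% of all genes. That gene was SRC (log2 fold change 0.34, edgeR adjusted p = 0.00666), a kinase held in the AHR complex. In HCT116 the SRC value was 0.14 (edgeR adjusted p = 0.145).

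Of the other bHLH-PAS proteins 2 of 9 passed in PC3 (11.3% of all genes), 5 with the replicate block (28.5% of all genes), and 3 of 8 in HCT116 (25.9% of all genes). HIF1A, which encodes HIF-1α, fell at the mRNA level in both lines, by 0.53 in PC3 and by 0.63 in HCT116 on the log2 scale (edgeR adjusted p = 0.0063 and 4.86e-05). EPAS1, which encodes HIF-2α, rose in HCT116 (0.37, edgeR adjusted p = 0.0159). In PC3 the EPAS1 value was 0.31 (edgeR adjusted p = 0.156), and 0.30 with the block, where it passed (adjusted p = 0.00821). ARNTL, the clock partner BMAL1 and a paralogue of ARNT, rose in PC3 (0.54, edgeR adjusted p = 0.0472), a call lost when any of 7 of the 8 libraries was left out. It had a log2 fold change of -0.08 (edgeR adjusted p = 0.51) in HCT116. HIF1A and EPAS1 were both higher in PC3 than in HCT116 in normoxia, with log2 differences of 1.64 and 3.61 (edgeR adjusted p = 1.58e-10 and 2.87e-12).

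Of 18 other genes known as AHR targets, 14 were tested in PC3, where VAV3 rose and SERPINB2 and IL1B fell, together 3 of 14, against 11.3% of all genes. With the replicate block 9 passed, against 28.5% of all genes. SERPINB2, a protease inhibitor, fell by 0.91 and IL1B, the cytokine interleukin-1β, fell by 0.60 on the log2 scale (edgeR adjusted p = 0.0367 and 0.00704). VAV3, a guanine nucleotide exchange factor, rose by 0.52 (edgeR adjusted p = 0.0398). The SERPINB2 and VAV3 calls were lost when single libraries were left out (edgeR adjusted p up to 0.104 and 0.126). In HCT116 9 were tested and 3 rose, against 14.6% of all genes. Among them was STC2, a secreted glycoprotein, which rose by 1.65 (edgeR adjusted p = 1.11e-07). STC2 in PC3 had a log2 fold change of 0.50 (edgeR adjusted p = 0.328), which passed with the replicate block (0.48, adjusted p = 0.00215). Its PC3 minus HCT116 difference was -1.14 (edgeR adjusted p = 0.133) and passed with the block (-1.15, adjusted p = 9.0e-05). NQO1, the quinone reductase, did not pass in either line (0.19 in PC3, edgeR adjusted p = 0.176, and 0.08 in HCT116, edgeR adjusted p = 0.479). CYP2S1, another P450 of the AHR response, did not pass either (-0.11 in PC3, edgeR adjusted p = 0.603, and -0.19 in HCT116, edgeR adjusted p = 0.0761).

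For the 3 lists that follow, edgeR called 11.3% of all genes in PC3, DESeq2 18.2% and the replicate block 28.5%. In HCT116 14.6% of all genes rose by edgeR. Coregulators gave no call by edgeR among 10 tested in PC3, where 4 had an unadjusted p under 0.05. DESeq2 called 4 of them. The replicate block called 4 (EP300, CREBBP, NRIP1 and CUL4B, all higher). In HCT116 CREBBP, a histone acetyltransferase, rose (0.29), 1 of 10. Makers of tryptophan-derived ligands gave no call by edgeR among 5 tested in PC3, where 0 had an unadjusted p under 0.05, DESeq2 called 0 and the block 1 (KYNU, lower). In HCT116 AFMID, a kynurenine formamidase, rose among 2 tested (0.40). The genes of electron supply and of CYP1B1 regulation gave no call by edgeR among 6 in PC3, where 2 had an unadjusted p under 0.05, DESeq2 called 1 and the block 2 (POR higher and ESR1 lower). CYB5R3, a cytochrome b5 reductase, and PGRMC1, a haem-binding partner of P450 enzymes, rose in HCT116 among 5 (0.28 and 0.32).

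**Figure D5:**
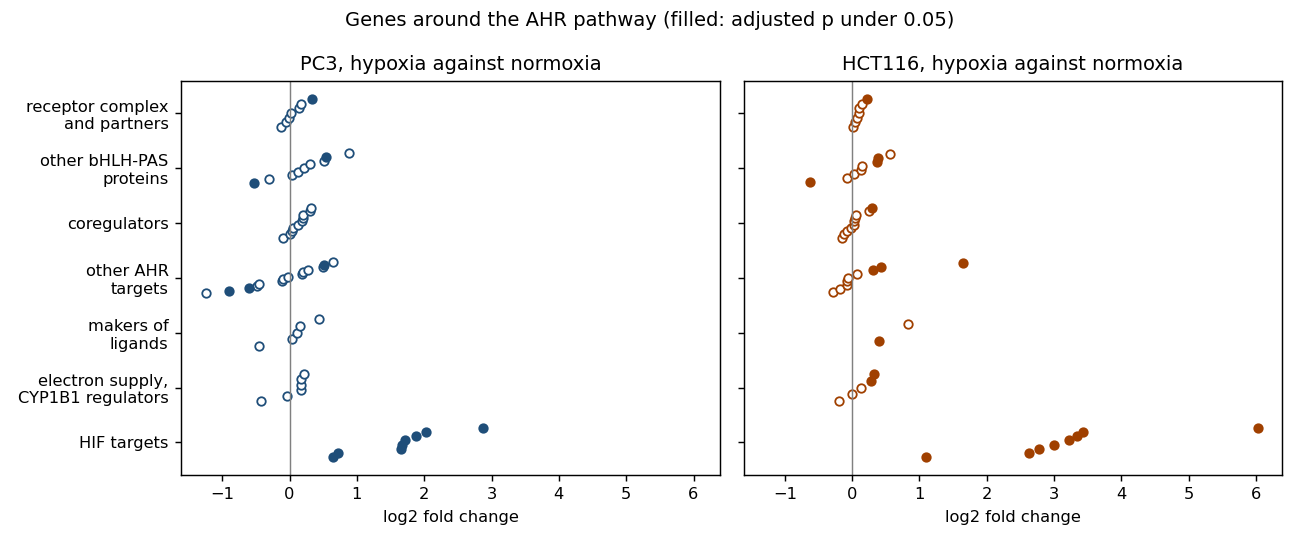
Log2 fold change in hypoxia of the tested genes of 6 lists around the pathway and of the HIF targets in PC3 (left) and HCT116 (right), 1 point per gene, filled where the edgeR adjusted p was under 0.05. The 8 HIF targets are filled in both lines, and of the other lists 6 of 51 points are filled in PC3 and 11 of 41 in HCT116, with STC2 the highest of them in HCT116 at 1.65.

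Between the lines in normoxia, 30 of 52 of these genes were higher in PC3 and 16 lower, against 42.4% and 38.9% of all genes. AHR targets went both ways. EREG, an EGF-family ligand, was lower in PC3, with a log2 difference of -8.97 (edgeR adjusted p = 2.11e-15), and so were ABCG2, a drug efflux pump (-4.48, edgeR adjusted p = 4.43e-09), and NQO1 (-1.97, edgeR adjusted p = 1.65e-11). SERPINB2 was higher in PC3 (8.03, edgeR adjusted p = 3.5e-11), as was STC2 (3.53, edgeR adjusted p = 2.86e-08). In normoxic HCT116 SERPINB2 had only 3 to 9 counts a library, so the size of its difference is imprecise. IL1B, which had no count in normoxic HCT116, was at least 1938-fold higher in PC3, taking 3 counts per library as the floor. Of the makers of tryptophan-derived ligands, IDO1, which opens the pathway from tryptophan to kynurenine, had no count in normoxic HCT116 and was at least 139-fold higher in PC3 against the same floor. KYNU, a kynureninase, was also higher in PC3 (4.78, edgeR adjusted p = 1.03e-06), with 5 to 13 counts a library in normoxic HCT116. Of the 5 makers tested, 4 were higher in PC3 and 1 was lower, namely AFMID (-0.21, edgeR adjusted p = 0.0248).

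The genes whose pattern over the 14 libraries was most like that of CYP1B1 were C10orf55, ADAMTS15, PLAU, FAIM3 and AS3MT, with root mean square differences of 0.595 to 0.658 in log2 CPM after each gene was centred on its own mean, among 12638 genes. All 5 were more abundant in PC3. PLAU, the urokinase plasminogen activator, averaged 1264 CPM in normoxic PC3, 808 in hypoxic PC3, 34.7 in normoxic HCT116 and 30.4 in hypoxic HCT116. The distance between the lines makes up most of this pattern for CYP1B1 too. C10orf55 lies on the strand opposite to PLAU and shares 7528 bases of its locus, so their reads may not be separate. Over the 8 PC3 libraries alone the nearest was EPGN, an EGF-family ligand, at 0.317, with a mean of 113 CPM in normoxia and 31.1 in hypoxia, and none of the 5 genes was shared with the list over 14 libraries. PURB, ADO and RASA1 were nearest to AHR (0.0865 to 0.119), and VPS72 and PRMT7 were among the 3 nearest to TIPARP (0.0874 and 0.0888).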

How the data were processed

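Polyadenylated RNA of PC3 and HCT116 cells was sequenced in pairs of reads. The authors aligned the reads with HISAT2 2.05 to the ERCC sequences and then to GRCh37, and counted them on RefSeq genes with HTSeq 0.5.4p3 in intersection-strict mode. The deposited values are these counts per gene symbol, not normalised, for 14 libraries. The study calls the replicates biological. Strand and the RefSeq release are not given in the sources used here. The libraries of HIF-1β knock-out cells and the ERCC reads are not used here.

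Counts were filtered with filterByExpr and TMM-scaled, and edgeR 4.0.16 (R 4.3.3) quasi-likelihood tests were run two-sided with Benjamini-Hochberg adjustment over all genes and a threshold of 0.05. Hypoxia was compared with normoxia within each line. The lines, and their difference in hypoxia effect, were compared in one fit over 14 libraries. The SE is the log2 fold change divided by the root of F. TMM takes most genes as unchanged, so a shift of all mRNA would not show. RPKM used the exonic length of the MANE Select, or else the Ensembl canonical, transcript of GENCODE on GRCh37. A length was found for 88.3% of genes in the fit over 14 libraries. The tests were run on simulated counts with independent replicates and the same spread for every gene. The PC3 libraries are paired, so those runs do not show how the tests do on them.

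The members and lists were chosen with earlier results of these data known. Named genes are the 6 members, ARNT, HIF1A, EPAS1, listed genes past the threshold (log2 fold change of at least 0.5, mean of at least 1 CPM), and the genes most like CYP1B1, AHR and TIPARP. A few genes of this rule are not reported here. The report names only some of the listed genes between the lines, chosen after their values were seen, as were the other listed genes below that size and those called with the block. Promoters come from a RefSeq table on GRCh38.p14.

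Replicates were not copies of one library: the chi-square per gene between their counts was 12.1 to 257. The replicate numbers, from the sample titles, pair the PC3 libraries. Deviations of same-numbered libraries from their group means correlated across 13519 genes at 0.773, 0.408, 0.258 and 0.352. Libraries of different numbers gave -0.505 to 0.29, so replicate 3 is the least clear pair. The alternatives were scaling by total count, by upper quartile or by median of ratios, DESeq2 1.42.0, other filters on low counts, the replicate block, one fit over both lines, normoxic libraries alone, and each library left out.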

Additional observations from a re-analysis of the deposited data

Results flagged for a closer look

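AHR in the hypoxic PC3 library of replicate 4 stood at 148 CPM, apart from the other 3 hypoxic PC3 libraries at 181 to 187 CPM. CLOCK in the same library was low as well, at 218 CPM against 254 to 255 CPM. In normoxic PC3, BNIP3 in replicate 4 stood at 39.8 CPM against 47.6 to 48.9 CPM. Replicate 1 of PC3 stood above the other replicates for NEDD9 in normoxia (31.2 CPM against 16.3 to 18.4) and in hypoxia (49.5 against 25.5 to 29.6), for IL6 in normoxia (44.2 against 14.6 to 17.7) and in hypoxia (32.1 against 11.3 to 11.96), and for IDO1 in normoxia (4.96 against 2.27 to 2.64). These are 8 of 110 groups of 4 libraries examined, and chance gives about 5.5 at 1 in 20.

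Of the HIF targets, 5 of 8 differed between the lines in their hypoxia effect by the edgeR interaction test, against 2.32% of all genes. The list was chosen as a check of hypoxia with earlier results of these data known, so nothing is read from that share. Each of the 5 rose less in PC3. The PC3 minus HCT116 log2 differences were -4.35 for CA9 (adjusted p = 7.77e-05), -2.26 for PDK1 (7.16e-06), -1.76 for ANKRD37 (0.00184), -1.498 for BNIP3 (1.42e-04) and -1.31 for PFKFB4 (0.00777).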

How the results depend on the processing

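The lowest count of the 6 genes was 59. The CV between replicates was below that of counting error alone for ALDH3A1 in HCT116 (5.81% against 9.95% in normoxia, 8.08% against 11.2% in hypoxia) and CYP1A1 in normoxic HCT116 (3.43% against 4.19%), and above it in the other groups. The members' log2 fold changes kept their direction in HCT116 and between the lines under the alternatives run, except CYP1B1 in HCT116, which was -0.017 with total-count scaling. AHRR in HCT116 passed with total-count scaling (-0.37, edgeR adjusted p = 0.0267) and with the replicate block (-0.29, 0.0438). The HCT116 numbers did not clearly pair the libraries, with same-number correlations of 0.0919, 0.229 and 0.000332, against -0.169 to 0.0822 between different numbers. The block moved no other call of a member. CYP1A1 in HCT116 did not pass in one fit over both lines (-0.89, 0.204). The line difference of CYP1A1 lay between -1.24 and -0.76 with single libraries left out. In the difference of hypoxia effects, single omissions gave CYP1A1 0.10 to 0.94 (0.10 without the hypoxic PC3 library of replicate 4) and CYP1B1 -2.34 to -1.91 (-2.34 without the hypoxic PC3 library of replicate 1, -2.29 without both libraries of that number). The PC3 SEs of the members are without pairing unless the block is named. With the block the PC3 log2 fold changes were -0.22 (SE 0.08) for AHR and -0.04 (SE 0.12) for AHRR. They were -0.25 (SE 0.07) for TIPARP and -0.07 (SE 0.15) for ALDH3A1. In PC3, CYP1A1, AHRR and ALDH3A1 changed sign when single libraries were left out (-0.77 to 0.07, -0.21 to 0.07 and -0.23 to 0.12). The cause was not tested.

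Over all genes, 863 rose and 757 fell in hypoxic PC3. These counts were 562 and 1733 with total-count scaling, 1392 and 1209 with DESeq2 and 2125 and 1949 with the replicate block, 1246 fell in one fit over both lines, and single omissions gave 364 to 1143 and 189 to 942. In HCT116 2061 rose and 1597 fell, 1286 and 3146 with total-count scaling, 938 and 795 in one fit over both lines, and 1378 to 1853 and 1068 to 1486 with single omissions. For the difference of hypoxia effects, 156 genes lay higher in PC3 and 203 lower, 466 and 497 with DESeq2, 597 and 710 with the block, and 78 to 294 and 94 to 423 with single omissions. Over the PC3 or the HCT116 libraries alone, 0 of the genes most like CYP1B1, AHR or TIPARP were shared with those over 14 libraries. TNGCGTG in place of GCGTG left 1 promoter window with a match.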
